A study of Mus musculus with 15 samples.

Results

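The Serpina genes encode clade A serpins, most of them protease inhibitors that hepatocytes secrete into plasma. Of the 29 genes with a symbol starting with Serpina among 55573 genes in the table, 10 are described here: *Serpina1a*, *Serpina1b*, *Serpina1c*, *Serpina1d*, *Serpina1e*, *Serpina3k*, *Serpina3m*, *Serpina3n*, *Serpina6* and *Serpina12*. They were taken by symbol, and all 10 passed the filter on low counts and were tested among 17655 genes.

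A serpin inhibits its target with an exposed reactive centre loop. The protease cuts the loop, the serpin then changes its fold, and the enzyme stays bound to it in an inactive form. Not all clade A members inhibit proteases: the product of *Serpina6* is corticosteroid-binding globulin, which carries glucocorticoids in blood. The *Serpina1* genes are the mouse copies of the gene for alpha-1-antitrypsin, the main plasma inhibitor of neutrophil elastase. The *Serpina3* genes belong to the expanded antichymotrypsin group, in which the product of *Serpina3k* is known as kallikrein-binding protein and *Serpina3n* is an acute phase gene, while *Serpina12* encodes vaspin, an adipokine that inhibits a kallikrein.

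RNA-seq was done on the livers of 15 mice aged 8 weeks, with 1 library a mouse, in 4 groups: 3 WT females (FWT), 3 WT males (MWT), 5 ESR1KO females (FKO) and 4 ESR1KO males (MKO). The ESR1KO mice were homozygous for the B6N(Cg)-Esr1tm4.2Ksk/J allele, a deletion of exon 3 of *Esr1*, the gene for estrogen receptor alpha, and came from matings of heterozygous mice. The loss is global, and the study describes infertility and raised testosterone in both sexes, so that loss of the receptor in the liver and the altered hormone state cannot be told apart. Levels are given as CPM, counts scaled to library size with TMM factors, differences are log2 fold changes with their SE from edgeR's quasi-likelihood test, and a difference was called where the adjusted p (Benjamini-Hochberg over all genes tested) was under 0.05.

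Total counts per mouse lay between 27799061 and 78624766. *Esr1* was at 74.7, 88.2 and 82.8 CPM in the WT females and at 25.0, 31.2 and 52.0 CPM in the WT males, against 9.67 to 19.7 CPM in ESR1KO females and 8.22 to 16.1 CPM in ESR1KO males, so the targeted gene followed the labels. The sum of 5 hepatocyte markers lay between 73849 and 107654 CPM per mouse. The 4 pancreatic acinar markers summed to at most 0.0723 CPM, the 5 neutrophil markers to at most 1.88 CPM and the 4 adipocyte markers to between 5.12 and 17.5 CPM. With 5 markers each, the sums were 236 to 395 CPM for Kupffer cells, 269 to 429 CPM for endothelial cells, 353 to 493 CPM for stellate cells or fibroblasts, 32.4 to 59.3 CPM for cholangiocytes and 1.32 to 3.41 CPM for lymphocytes. Of these lists, single hepatocyte, Kupffer cell and cholangiocyte markers were called, as given beside the comparisons, and their part in the results was not tested. In bulk liver, fewer cells of a type and less RNA per cell cannot be told apart.

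All 10 genes lie on chromosome 12 of GRCm38 (GENCODE M21), from the start of *Serpina6* at 103646630 to the end of *Serpina3n* at 104414329. The *Serpina1* genes stand next to each other on the minus strand in the order *Serpina1b*, *Serpina1d*, *Serpina1a*, *Serpina1c* and *Serpina1e*, counted by rising coordinate of their starts, and the *Serpina3* genes on the plus strand. The coding sequences of the 5 *Serpina1* genes are each 1239 bases long, and any pair was between 96.3% and 98.5% identical. They differ among themselves at 86 positions, 6.94% of the coding bases. The 60 coding bases from 1102 to 1161 hold 18 of these. This stretch codes for the reactive centre loop, and it is shown because it is the stretch of this length with the most differences among the paralogs. Capitals mark the bases at which the 5 genes are not all alike, 5′ to 3′ on the coding strand:

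Serpina1a: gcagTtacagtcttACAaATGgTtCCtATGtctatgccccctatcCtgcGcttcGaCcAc

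Serpina1b: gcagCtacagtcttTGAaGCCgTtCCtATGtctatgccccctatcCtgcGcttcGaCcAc

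Serpina1c: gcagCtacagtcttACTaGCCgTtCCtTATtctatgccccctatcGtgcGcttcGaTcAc

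Serpina1d: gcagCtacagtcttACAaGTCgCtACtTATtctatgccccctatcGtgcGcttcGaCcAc

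Serpina1e: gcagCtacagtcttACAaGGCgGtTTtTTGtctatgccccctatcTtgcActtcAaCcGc

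These stretches lie within coding exons at chr12:103853756-103853815 (*Serpina1a*), chr12:103728323-103728382 (*Serpina1b*), chr12:103895093-103895152 (*Serpina1c*), chr12:103763761-103763820 (*Serpina1d*) and chr12:103947099-103947158 (*Serpina1e*), all on the minus strand. Bases in which 1 gene differs from the other 4 were counted only where those 4 are alike. Over the whole coding sequence, *Serpina1e* holds 17 such bases, *Serpina1b* 16, *Serpina1d* 15, *Serpina1c* 7 and *Serpina1a* 6. Of all 100-base windows of the transcript, 85.2% occur in no transcript of another gene for *Serpina1e*, 79.4% for *Serpina1b*, 70.7% for *Serpina1d*, 41.5% for *Serpina1c* and 39.02% for *Serpina1a*. How the authors counted reads that fit several genes is not given in the sources used here, so the counts of *Serpina1a* and *Serpina1c*, which share most of their windows with each other, are the least certain. *Serpina3k* and *Serpina3m* are 91.0% identical in coding sequence, overlap in 60 exon bases and have 95.1% and 93.9% of windows to themselves. *Serpina3n* has 99.8% of windows to itself, and *Serpina6* and *Serpina12* have all of theirs.

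Per kilobase of exon, *Serpina3k* had the highest mean level of the 10 genes in each group, at 3097 (FWT), 6028 (MWT), 4681 (FKO) and 3864 (MKO) CPM per kilobase. *Serpina12* had the lowest, at 5.23, 32.8, 15.6 and 14.7 CPM per kilobase in the same order. The place of *Serpina1e* in this order differed between groups. In WT females it came after *Serpina1d*, *Serpina1b* and *Serpina1c* at 696 CPM per kilobase, and its range overlapped that of *Serpina1a* at 638. In WT males it stood at 5155 CPM per kilobase, above the 1587 of *Serpina1d*, and its range overlapped that of *Serpina3k*. In both ESR1KO groups it was above *Serpina1d* in the mean (1502 against 1387 CPM per kilobase in females, 1659 against 1489 in males), with ranges that overlapped. Together the 10 genes took from 1.60% to 1.76% of all counts in the female and from 2.87% to 3.04% in the male WT livers, and from 1.84% to 2.24% (females) and from 1.63% to 2.33% (males) in ESR1KO livers.

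**Figure D1:**
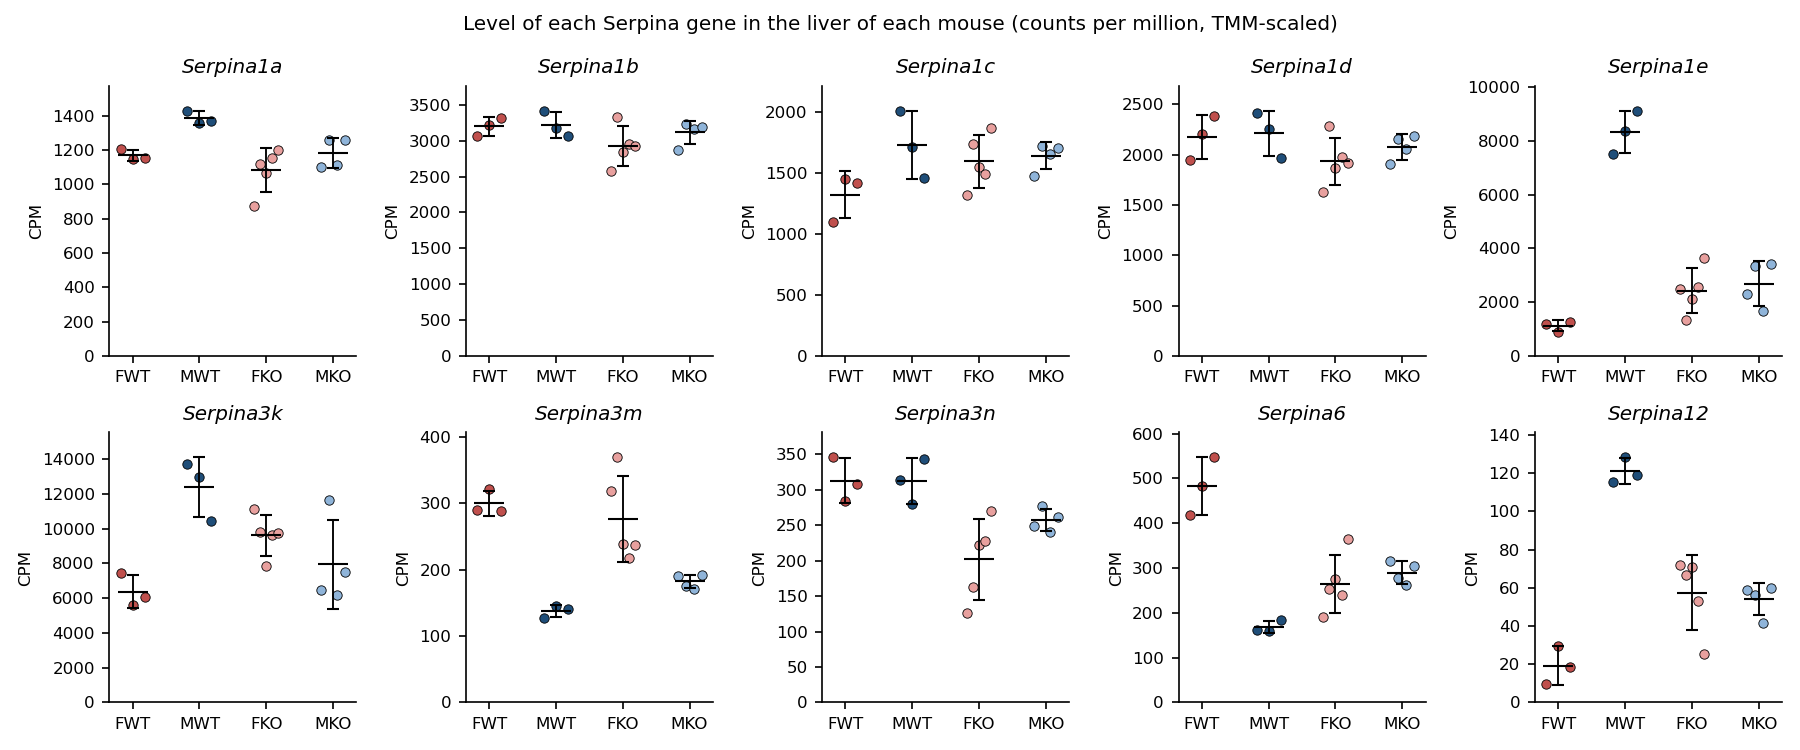
CPM of each of the 10 genes (vertical axes, linear, from 0) for WT (FWT, MWT) and ESR1KO (FKO, MKO) mice of either sex. Each point is a mouse, and the bar with whiskers is the mean with the SD (n = 3, 3, 5 and 4). *Serpina1e* and *Serpina12* were highest in the 3 WT males, *Serpina6* was highest in the 3 WT females, and *Serpina1b* and *Serpina1d* overlapped in all 4 groups.

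In WT livers, the comparison of females with males asked which of these genes are sex-biased. *Serpina1e*, *Serpina12* and *Serpina3k* were lower in females, *Serpina6* and *Serpina3m* were higher, and the other 5 genes were not called. Among all genes tested, 2.2% were called lower and 2.67% higher in this comparison, against 3 and 2 of the 10. The median log2 difference of the 10 genes was -0.14, beside 0.01 over all genes tested.

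*Serpina1e* was at 1203, 895 and 1279 CPM in WT females and at 7521, 8369 and 9119 CPM in WT males. The lowest male was far above the highest female, and the level in females was 7.41-fold lower (log2 fold change -2.89, SE 0.32, adjusted p = 1.57e-05). *Serpina12* was at 9.60, 29.6 and 18.7 CPM in females and at 115, 128 and 119 CPM in males. It too separated the sexes without overlap, with a 6.28-fold lower level in females (-2.65, SE 0.37, adjusted p = 0.000182). *Serpina3k* was at 7425, 5630 and 6055 CPM in females and at 13741, 13001 and 10458 CPM in males. The sexes did not overlap, but the difference was smaller at 1.95-fold (-0.96, SE 0.23, adjusted p = 0.0187). The call of *Serpina3k* was lost when FWT2, FWT3, MWT1 or MWT2 was left out (adjusted p = 0.0930, 0.0843, 0.0830 and 0.0651).

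In the other direction, *Serpina6* was at 418, 483 and 548 CPM in WT females and at 161, 160 and 184 CPM in WT males. Its level was 2.87-fold higher in females, with no overlap (log2 fold change 1.52, SE 0.18, adjusted p = 4.38e-05). *Serpina3m* was at 290, 321 and 288 CPM in females and at 127, 145 and 141 CPM in males. It was 2.18-fold higher in females, again with no overlap (1.12, SE 0.17, adjusted p = 0.000387). *Serpina3m* and *Serpina3k*, neighbours on chromosome 12 that overlap in an exon, thus had opposite sex bias in WT livers.

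Among the genes not called, *Serpina3n* had nearly equal means in the 2 sexes (313 ± 31.4 CPM in females and 313 ± 31.9 CPM in males, SD, n = 3 each). *Serpina1b* was at 3200 ± 128 CPM in females and 3221 ± 179 CPM in males, and *Serpina1d* at 2174 ± 220 and 2212 ± 226 CPM. *Serpina1a* lay between 1147 and 1207 CPM in females and between 1357 and 1429 CPM in males. These ranges did not overlap, and the difference did not pass the test (log2 fold change -0.25, SE 0.13, adjusted p = 0.353). *Serpina1c* was at 1320 ± 192 CPM in females and 1726 ± 278 CPM in males (-0.39, adjusted p = 0.221). The sum of the hepatocyte markers moved the opposite way to *Serpina1e*, from between 73849 and 76408 CPM in WT males to between 100519 and 107654 CPM in WT females, with *Alb* called (0.66, adjusted p = 0.0382). Of the 5 cholangiocyte markers, *Epcam* was called higher in WT females (1.08, adjusted p = 0.00657) and *Sox9* lower (-1.03, adjusted p = 0.0384), and the list summed to between 32.4 and 32.9 CPM in females and between 34.0 and 55.6 CPM in males.

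Since reads of the *Serpina1* paralogs can be shared, their sum was also formed, which does not depend on how reads were split among them. If reads that fit several genes were left out of the counts, the sum and the share of *Serpina1e* in it would still be affected. Whether they were left out is not given in the sources used here. The sum lay between 8513 and 9539 CPM in WT females and between 16792 and 16980 CPM in WT males, without overlap. *Serpina1e* took between 10.04% and 14.1% of it in WT females and between 44.8% and 53.7% in WT males. In ESR1KO livers the sum lay between 8896 and 11543 CPM in females and between 9651 and 11759 CPM in males, and the share of *Serpina1e* between 13.7% and 31.4% in females and between 17.4% and 29.1% in males. Thus, both ESR1KO groups stood below the WT males in the sum as well as in the share, and overlapped each other.

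**Figure D2:**
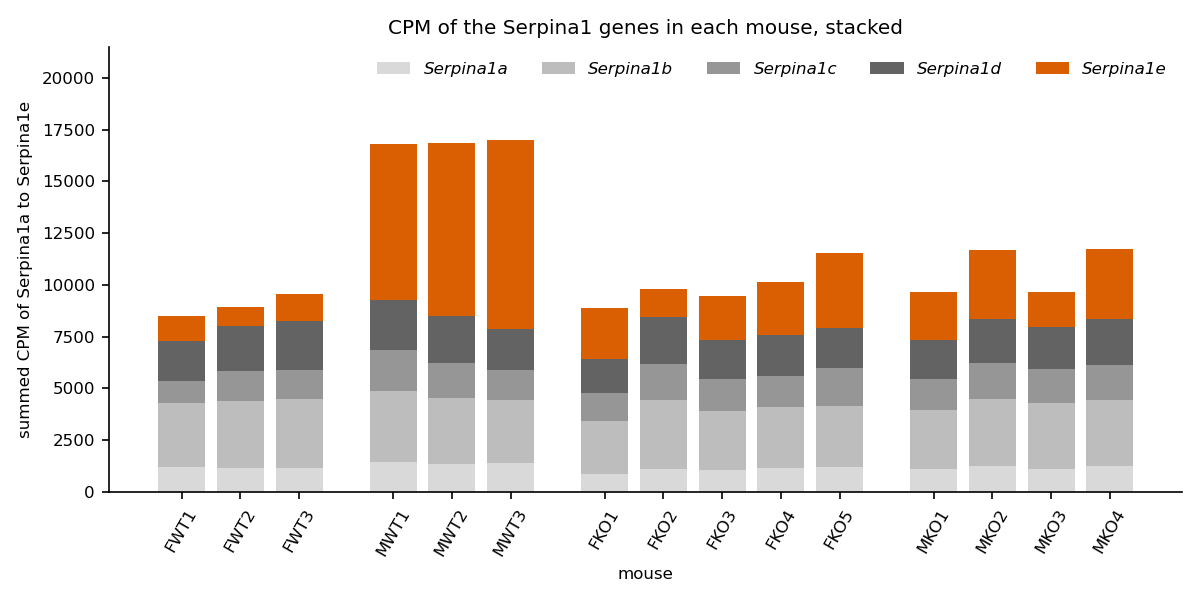
Summed CPM of the 5 *Serpina1* genes (vertical axis, linear, from 0) in each of the 15 mice, stacked by gene, with *Serpina1e* in orange at the top and the other 4 genes in greys. The 3 WT males reach 16792 to 16980 CPM, with 44.8% to 53.7% of it from *Serpina1e*, and none of the other 12 mice exceeds 11759 CPM.

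The sex difference of *Serpina1e* was set beside the promoters of the paralogs, which RefSeq gives (GRCm38.p6) from 250 bases before to 50 bases after the start of 7 of the 10 genes. The windows of *Serpina1e* and *Serpina1b* are shown because *Serpina1b* was the paralog with the promoter most like that of *Serpina1e*. Aligned over 250 columns, the windows were 97.6% identical, against 95.2% to 96.6% for *Serpina1e* with each of the other paralogs. *Serpina1e* differed 7.41-fold between WT sexes, and *Serpina1b* had a log2 difference of -0.01 (adjusted p = 0.982). The stretch of *Serpina1e* is at chr12:103956900-103957147 and that of *Serpina1b* at chr12:103738140-103738389, both on the minus strand, and capitals mark the bases that differ or are missing in the other:

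Serpina1e: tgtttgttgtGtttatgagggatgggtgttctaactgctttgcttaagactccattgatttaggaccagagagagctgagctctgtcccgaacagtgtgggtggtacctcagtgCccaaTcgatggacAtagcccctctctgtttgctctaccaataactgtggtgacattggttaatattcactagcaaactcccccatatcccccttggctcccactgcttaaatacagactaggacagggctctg

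Serpina1b: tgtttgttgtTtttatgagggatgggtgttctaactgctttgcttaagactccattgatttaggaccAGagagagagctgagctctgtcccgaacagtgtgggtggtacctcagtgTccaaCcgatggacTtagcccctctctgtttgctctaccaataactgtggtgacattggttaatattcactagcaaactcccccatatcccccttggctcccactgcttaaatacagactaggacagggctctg

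*Serpina1e* has 4 such bases and *Serpina1b* has 6. The stretch ends 3 bases before the RefSeq start of *Serpina1e* and 49 bases after that of *Serpina1b*, so the same sequence is placed differently against the annotated starts. Both strands of the 7 promoters were searched for the STAT site TTCNNNGAA, which 8.3% of the 32851 promoters in the table hold, and for the palindromic estrogen response element, held without mismatch by 0.07%. None of the 7 held either. The palindromic steroid receptor site, held by 0.475% of promoters, occurred in the promoter of *Serpina3n*. Exact strings for HNF1, C/EBP, HNF3 and HNF4 were also searched for and occurred in none of the 7. Of all promoters, 0.0396%, 0.798%, 3.65% and 0.475% hold them, so 7 promoters can easily hold none. Sites with mismatches were not searched for, so whether these promoters hold such sites cannot be told. These counts describe letters in these windows.

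In ESR1KO livers, females were compared with males to ask which sex bias remained without the receptor. None of the 10 genes was called by edgeR, and 1, *Serpina3m*, had an unadjusted p under 0.05. The share of all genes under that unadjusted limit was not counted. Among all genes tested, 0.159% were called higher and 0.113% lower in ESR1KO females. The median log2 difference of the 10 genes was -0.10, beside 0.01 over all genes.

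*Serpina1e* was at 2500, 1348, 2120, 2549 and 3630 CPM in ESR1KO females and at 2294, 3332, 1685 and 3422 CPM in ESR1KO males. The sexes overlapped throughout, with a log2 difference of -0.14 (SE 0.25, adjusted p = 0.780). *Serpina12* was at 71.8, 66.5, 71.1, 52.9 and 25.2 CPM in females and at 58.6, 56.5, 41.6 and 59.7 CPM in males. The female values spread on both sides of the male ones (0.09, adjusted p = 0.892). *Serpina6* was at 191, 252, 274, 239 and 365 CPM in females and at 316, 277, 261 and 304 CPM in males, again with overlap (-0.13, adjusted p = 0.658).

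*Serpina3m* was the exception in separation. It was at 319, 369, 238, 218 and 238 CPM in ESR1KO females and at 190, 176, 171 and 191 CPM in ESR1KO males, with no overlap. The level in females was 1.52-fold higher but was not called (log2 fold change 0.60, SE 0.14, adjusted p = 0.0733). DESeq2 called it (adjusted p = 0.00391), and without FKO4 edgeR did so too (adjusted p = 0.0386). Over the alternative settings the adjusted p lay between 0.00391 and 0.202, and with single mice left out between 0.0386 and 0.212. Of the 5 Kupffer cell markers, *Vsig4* was called higher in ESR1KO females (0.61, adjusted p = 0.0210), and the list summed to between 308 and 395 CPM in females and between 236 and 307 CPM in males.

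On the scale of mean log2 CPM, the sexes were 2.90 apart for *Serpina1e* in WT mice and 0.156 apart in ESR1KO mice. The distance was 2.79 and 0.0082 for *Serpina12*, 1.51 and 0.160 for *Serpina6*, and 0.961 and 0.317 for *Serpina3k*. For *Serpina3m* it was 1.12 and 0.573. For *Serpina1b*, *Serpina1d* and *Serpina3n* the sexes were 0.0088, 0.0243 and 0.00177 apart in WT mice, and 0.0942, 0.109 and 0.398 apart in ESR1KO mice.

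**Figure D3:**
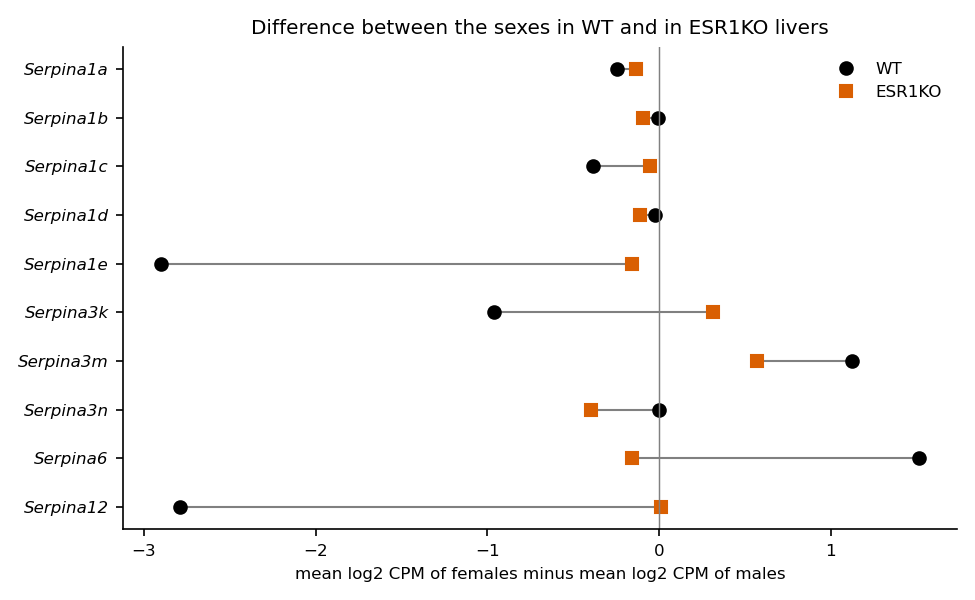
Mean log2 CPM of females minus that of males (horizontal axis) for each of the 10 genes, in WT livers (black circles, 3 females and 3 males) and in ESR1KO livers (orange squares, 5 females and 4 males). The WT points of *Serpina1e* and *Serpina12* lie 2.90 and 2.79 below 0 and their ESR1KO points 0.156 below and 0.0082 above it, whereas *Serpina3m* keeps a female excess of 0.573 in ESR1KO livers.

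In females, the comparison of ESR1KO with WT livers showed a rise of *Serpina1e* and *Serpina12* and a fall of *Serpina6* and *Serpina3n*. Of all genes tested, 3.14% rose and 2.57% fell in this comparison. The WT females are the same mice as in the comparison of the WT sexes, so the results on them are not independent. The median log2 difference was -0.11 for the 10 genes, beside 0.00 over all genes.

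From the values given above, the lowest *Serpina1e* level of the ESR1KO females (1348 CPM) was just above the highest of the WT females (1279 CPM). The rise was 2.16-fold (log2 fold change 1.11, SE 0.28, adjusted p = 0.0295), and the highest ESR1KO female (3630 CPM) remained below the lowest WT male (7521 CPM). *Serpina12* rose 2.98-fold (1.58, SE 0.33, adjusted p = 0.00987). Its groups overlapped, since FKO5 at 25.2 CPM was below FWT2 at 29.6 CPM. The call of *Serpina1e* was lost without FWT1, FWT2 or FWT3 (adjusted p = 0.0864, 0.135 and 0.0809), and that of *Serpina12* without FWT1 or FWT3 (adjusted p = 0.0501 and 0.0561). A fit of the WT and ESR1KO females alone called neither gene (adjusted p = 0.0734 and 0.0613).

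*Serpina6* fell 1.83-fold in ESR1KO females (log2 fold change -0.87, SE 0.16, adjusted p = 0.00378). Its highest value among the ESR1KO females, 365 CPM in FKO5, was below the lowest of the WT females, 418 CPM, and the call held with each mouse left out. *Serpina3n* was at 346, 284 and 308 CPM in WT females and at 126, 164, 222, 228 and 270 CPM in ESR1KO females. The groups did not overlap, and the fall of 1.55-fold stood at the threshold (-0.63, SE 0.18, adjusted p = 0.04997). It held in 3 of 15 fits with 1 mouse left out, where the adjusted p lay between 0.0137 and 0.174, and was lost without any of the 3 WT females, the 3 WT males, the 4 ESR1KO males, FKO2 or FKO4. It was also lost with total counts only, DESeq2's size factors or upper quartiles in edgeR (adjusted p = 0.0515, 0.0505 and 0.0545). A fit of the WT and ESR1KO females alone did not call *Serpina3n* either (adjusted p = 0.175).

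*Serpina3k* did not overlap between WT females (5630 to 7425 CPM) and ESR1KO females (7835 to 11140 CPM), and was not called by edgeR (log2 fold change 0.60, SE 0.21, adjusted p = 0.0986), though DESeq2 called it (adjusted p = 0.0267). Over the alternative settings its adjusted p lay between 0.0267 and 0.133. *Serpina3m* was not called either (-0.12, adjusted p = 0.677). The groups did not overlap for *Serpina1e*, *Serpina3k*, *Serpina3n* and *Serpina6*, 4 of the 10 genes. The share of all genes without overlap was not counted. FKO5 had the highest *Serpina1e*, *Serpina3n* and *Serpina6* and the lowest *Serpina12* of the ESR1KO females. Of the 5 cholangiocyte markers, *Spp1* rose (0.60, adjusted p = 0.0272), and the list summed to between 43.7 and 51.4 CPM in ESR1KO females, above the WT females. Most of this sum was *Spp1*, with means of 28.8 CPM in WT and 43.5 CPM in ESR1KO females. The other markers of the list were not called in this comparison.

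In males, ESR1KO livers had lower *Serpina1e* and higher *Serpina6* than WT livers, and the other 8 genes were not called. Of all genes tested, 0.583% fell and 0.833% rose. The WT males also served in the comparison of the WT sexes. The median log2 difference was -0.16 for the 10 genes, beside 0.00 over all genes.

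*Serpina1e* fell 3.11-fold, from at least 7521 CPM in each WT male to at most 3422 CPM in the ESR1KO males (log2 fold change -1.64, SE 0.28, adjusted p = 0.00585). The call held with each mouse left out (adjusted p between 0.00304 and 0.0354). *Serpina6* rose 1.72-fold, from 160 to 184 CPM in WT males to 261 to 316 CPM in ESR1KO males (0.78, SE 0.17, adjusted p = 0.0300). The groups did not overlap, and the call was lost without MWT1, MWT2, MWT3, MKO1, MKO3 or MKO4, with a highest adjusted p of 0.132.

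*Serpina12* was between 115 and 128 CPM in WT males and between 41.6 and 59.7 CPM in ESR1KO males. The groups did not overlap, and the 2.24-fold difference was not called (log2 fold change -1.16, SE 0.32, adjusted p = 0.0937). DESeq2 called it (adjusted p = 0.0135). Its adjusted p lay between 0.00162 and 0.0959 over the alternative settings, the lower value from a fit of the WT and ESR1KO males alone, and between 0.0256 and 0.248 with single mice left out. *Serpina1a*, *Serpina3m* and *Serpina3n* did not overlap between the groups either and were not called (log2 fold changes -0.23, 0.40 and -0.28, with adjusted p = 0.494, 0.282 and 0.627). The fit of the males alone called *Serpina3m* (adjusted p = 0.0316), whose adjusted p reached 0.424 over the alternative settings. *Serpina3k* was at 6464, 11673, 6157 and 7497 CPM in ESR1KO males, where MKO2 exceeded the lowest WT male at 10458 CPM (-0.64, adjusted p = 0.174). Its adjusted p was 0.0198 without MKO2 and lay between 0.0198 and 0.417 with single mice left out and between 0.0469, with DESeq2, and 0.242 over the other settings. The cholangiocyte markers *Krt19* and *Epcam* rose in ESR1KO males (1.23 and 0.95, adjusted p = 0.0307 and 0.0300), where the 5 markers summed to between 41.3 and 59.3 CPM, overlapping the WT males.

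Whether the effect of genotype differed between females and males was tested as an interaction, which is also the sex difference in ESR1KO mice minus that in WT mice. It was called for 4 of the 10 genes. *Serpina1e*, *Serpina12* and *Serpina3k* had higher values in this term and *Serpina6* a lower one, beside 1.02% and 0.923% of all genes tested. The interaction was 2.75 on the log2 scale for *Serpina1e* (SE 0.40, adjusted p = 0.000665), 2.74 for *Serpina12* (SE 0.46, adjusted p = 0.00266) and -1.65 for *Serpina6* (SE 0.24, adjusted p = 0.000587). For these 3 genes the call held with each mouse left out. For *Serpina3k* it was 1.24 (SE 0.29, adjusted p = 0.0367), with estimates of opposite sign in females (0.60) and males (-0.64). That call was lost in 10 of 15 fits with 1 mouse left out (FWT2, FWT3, MWT1, MWT2, FKO2, FKO4, FKO5, MKO1, MKO3 or MKO4), with adjusted p up to 0.114.

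The interaction of *Serpina3m*, whose sex difference was 1.12 in WT and 0.60 in ESR1KO mice, was -0.52 and not called (SE 0.21, adjusted p = 0.284). *Serpina1a* to *Serpina1d* had interactions between -0.08 and 0.34, none of them called. The median over the 10 genes was 0.02, beside -0.01 over all genes. *Epcam* was the cholangiocyte marker with a called interaction (-1.17, adjusted p = 0.0390).

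**Figure D4:**
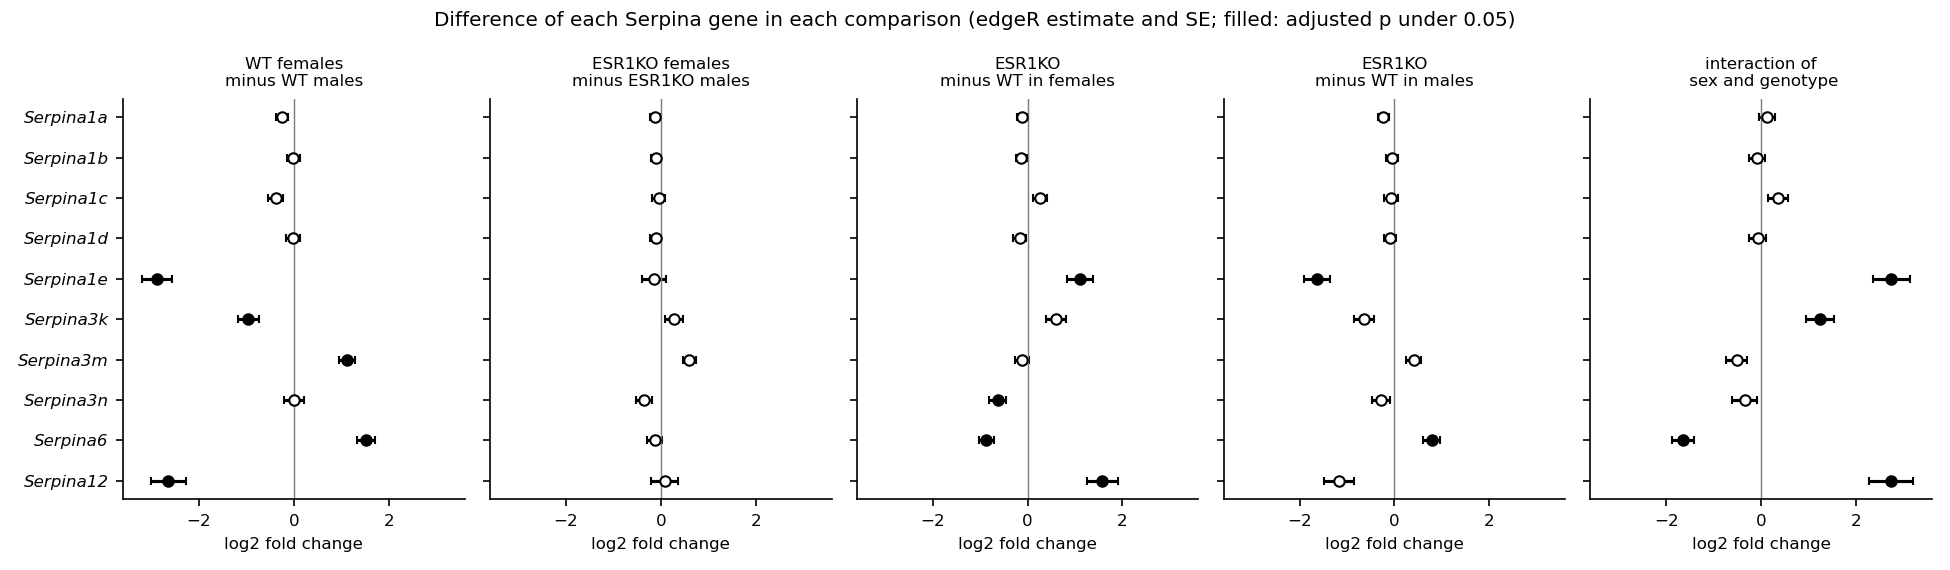
Log2 fold change (horizontal axes) of each of the 10 genes in the 5 comparisons, with whiskers for the SE. Filled points were called at an adjusted p under 0.05 and open points were not. *Serpina1e* is at -2.89 between WT sexes, -0.14 between ESR1KO sexes, 1.11 in females and -1.64 in males, whereas *Serpina1b* and *Serpina1d* lie between -0.17 and -0.01 in the 5 panels.

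Of the other 19 Serpina genes, 10 passed the filter on low counts, and 3 of these were called in at least 1 comparison. The share of all genes called in at least 1 comparison was not counted. In 1 direction of a single comparison it was at most 3.14%. *Serpina3c*, on chromosome 12 between *Serpina12* and *Serpina3k*, was low in all livers, with 1.79 to 2.29 CPM in FWT, 4.42 to 5.18 CPM in MWT, 2.74 to 3.91 CPM in FKO and 2.53 to 3.57 CPM in MKO. It had the directions of *Serpina1e*: lower in WT females than in WT males (log2 fold change -1.27, adjusted p = 0.000180), a rise in ESR1KO females (0.79, adjusted p = 0.00823) and a fall in ESR1KO males (-0.70, adjusted p = 0.0363). Its interaction was 1.49 (adjusted p = 0.00106).

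*Serpina4-ps1*, an unprocessed pseudogene on the same chromosome, lay between 24.2 and 41.5 CPM in WT females and between 105 and 544 CPM in WT males (-3.07, SE 0.70, adjusted p = 0.0143). It rose in ESR1KO females to between 86.7 and 236 CPM (2.50, adjusted p = 0.0329), and its interaction was 3.84 (adjusted p = 0.0281). The WT males spread over a wide range, with MWT2 at 544 CPM and the others at 176 and 105 CPM.

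*Serpina7*, which encodes thyroxine-binding globulin and lies on chromosome X, followed another pattern. It was at 15.7, 8.53 and 4.22 CPM in WT females and at 16.7, 22.1 and 22.9 CPM in WT males, and the sex difference was not called (log2 fold change -1.11, adjusted p = 0.172). It was at 80.4, 117, 59.6, 74.1 and 28.7 CPM in ESR1KO females and at 85.7, 78.8, 111 and 123 CPM in ESR1KO males. All ESR1KO mice were above all WT mice, with a rise in females (2.92, SE 0.42, adjusted p = 0.000458) and in males (2.28, SE 0.41, adjusted p = 0.00859). The interaction was 0.64 and not called (SE 0.54, adjusted p = 0.606). No other tested Serpina gene was called in both sexes with the same sign of the genotype effect.

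The smallest adjusted p of *Serpina11*, *Serpina9* and *Serpina10* over the 5 comparisons was 0.215, 0.233 and 0.312, so none of these 3 was called.

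**Figure D5:**
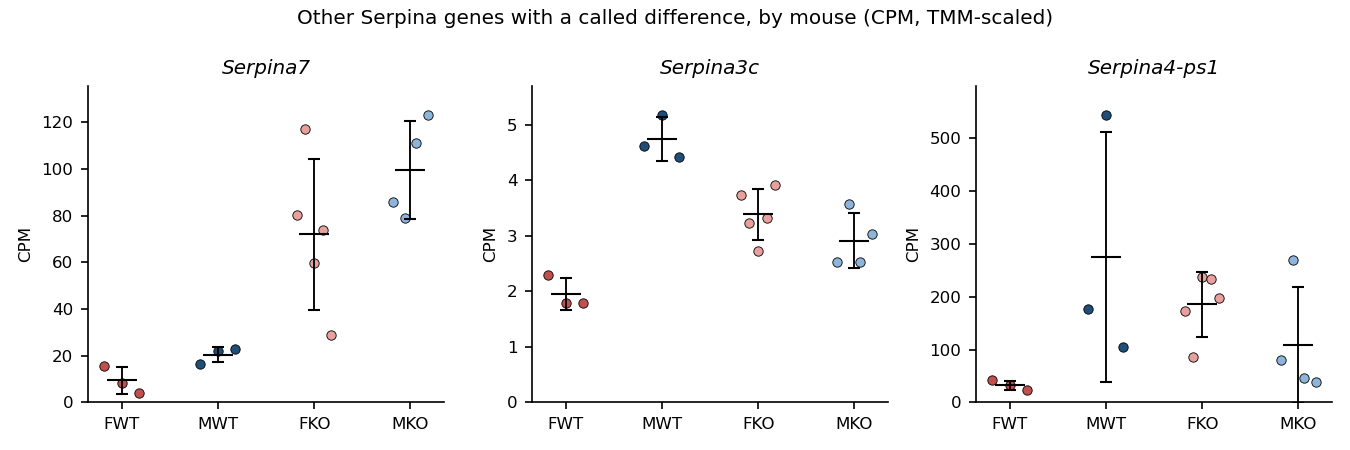
CPM (vertical axes, linear, from 0) of the 3 Serpina genes outside the 10 with a called difference, for WT (FWT, MWT) and ESR1KO (FKO, MKO) mice of either sex. Points are mice and bars are means with the SD (n = 3, 3, 5 and 4). *Serpina7* is at 28.7 CPM or above in each ESR1KO mouse and at 22.9 CPM or below in each WT mouse, while *Serpina3c* is highest in WT males.

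Genes of related function were counted from fixed lists. Of all genes tested, at most 3.14% were called in 1 direction of a comparison. Of 9 other serpins of liver and plasma, all tested, *Serpine2*, an inhibitor of thrombin and plasminogen activators, was lower in WT females (log2 fold change -1.55, adjusted p = 0.00836), and *Serpinh1*, the collagen chaperone, rose in ESR1KO males (0.64, adjusted p = 0.0180). Antithrombin (*Serpinc1*) and the other 6 were called in none of the 5 comparisons. Of 17 other plasma protease inhibitors, *Mug1*, a murinoglobulin, was lower in WT females (-0.92, adjusted p = 0.00577) and fell in ESR1KO males (-0.71, adjusted p = 0.0486). *Spp2* was higher in WT females (0.53, adjusted p = 0.0127), and in ESR1KO females *Cst3*, cystatin C, rose (0.36, adjusted p = 0.0353) and *Hrg* fell (-0.58, adjusted p = 0.0402). Of 10 proteases, 7 passed the filter. *Prtn3*, proteinase 3 and a target of alpha-1-antitrypsin, was lower in WT females (-2.81, adjusted p = 0.00751). It was near the floor, at 0.0692 to 0.138 CPM in WT females and 0.346 to 1.65 CPM in WT males, with a male median of 0.391 CPM. *Plg*, plasminogen, fell in ESR1KO females (-0.67, adjusted p = 0.0309).

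Of 20 acute phase genes, the class to which *Serpina3n* belongs, 1 was higher and 2 were lower in WT females than in WT males. *Orm3* was higher (log2 fold change 3.08, adjusted p = 0.00141), at 1.15 to 8.18 CPM in females and 0.349 to 0.692 CPM in males. *Saa1* and *Saa2* were lower (-2.78 and -2.40, adjusted p = 0.00216 and 0.0228). The WT males spread widely, from 24.3 to 182 CPM for *Saa1* and from 8.70 to 102 CPM for *Saa2*, and the sexes overlapped for *Saa2*. *Orm3* fell in ESR1KO females (-2.89, adjusted p = 0.000623) and *Saa4* fell in ESR1KO males (-1.03, adjusted p = 0.00491). Of 11 genes that handle or respond to glucocorticoids, the ligands of the *Serpina6* product, *Akr1d1* was higher in WT females (1.03, adjusted p = 0.00510) and *Srd5a1* was lower (-1.24, adjusted p = 0.000449). Both encode steroid reductases. *Srd5a1* rose in ESR1KO females (0.87, adjusted p = 0.00623). The glucocorticoid receptor gene *Nr3c1* was not called in any of the 5 comparisons.

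Of 10 genes of the growth hormone and STAT5 axis, *Cux2*, which encodes a transcriptional repressor, was higher in WT females (log2 fold change 6.14, adjusted p = 3.75e-06) and in ESR1KO females (3.07, adjusted p = 0.00990) than in males of their genotype. It fell in ESR1KO females (-3.32, adjusted p = 8.78e-05), as did *Stat5a* (-0.84, adjusted p = 0.0357). None of 10 hepatocyte transcription factors and none of 12 genes of folding and export in the endoplasmic reticulum was called in the 5 comparisons. At the shares called over all genes, lists of this size can hold no call. The median log2 fold change of these lists lay between -0.14 and 0.19 and between -0.07 and 0.00.

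Across the 15 mice, the genes outside the serpins with log2 CPM most like that of *Serpina1e* were *Cyp7b1* (Pearson r = 0.957), *Selenbp2* (r = 0.928) and *Mup1* (r = 0.923). Each was highest in the WT males: *Cyp7b1*, an oxysterol hydroxylase, lay between 707 and 746 CPM there, between 38.0 and 72.4 CPM in WT females, and between 69.4 and 156 CPM in the ESR1KO mice of both sexes. Within the family, *Serpina1b* and *Serpina1d* followed each other most closely (r = 0.960 over 15 mice), and *Serpina6* and *Serpina12* were most opposed (r = -0.868). *Serpina1e* had r = 0.761 with *Serpina3k*, 0.726 with *Serpina12*, -0.771 with *Serpina6* and -0.824 with *Serpina3m*. These correlations describe mice that share the same 4 groups, and in the *Serpina1* genes the counts may share reads.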

How the data were processed

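Liver RNA of 15 mice was depleted of ribosomal RNA and sequenced as paired-end reads, with a second run for some samples. The authors trimmed the reads with Trimmomatic, aligned them with STAR to GRCm38 and counted them per gene with HTSeq; the deposited table holds raw counts. Annotation release, strand setting and treatment of reads with several matches are not given in the sources used here. Groups follow the genotype and sex of the labels. The tests set differences between groups against the spread of separate mice, estimated over all 15 mice in the main fit.

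The analysis used edgeR 4.0.16 in R 4.3.3, with filterByExpr, TMM scaling and a quasi-likelihood fit of 1 mean per group over all 15 libraries. The 5 contrasts were adjusted by Benjamini-Hochberg over 17655 genes and called at 0.05. The study's minimum log2 fold change of 1.5 was an alternative, as were other scalings, other filters, DESeq2 1.42.0, a fit of only the 2 groups compared, a replicate block, the *Serpina1* genes summed, and each mouse left out. Log2 CPM used a prior count of 2. Total counts were 27799061 to 78624766 per mouse, and TMM factors 0.957 to 1.04. Replicates of a group differed by a chi-square per gene of at least 23.5, so none was a repeat of another. Pairs of ESR1KO females differed most, by 64.76 to 377.6, against 23.52 to 64.85 for pairs within the other groups. The model was tested on simulated data. Sequences came from GENCODE M21 transcripts and RefSeq promoters.

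Named genes are the 10 members, the 6 other Serpina genes with the smallest adjusted p, up to 4 genes per list by smallest adjusted p, and the 3 genes most like the member with the largest WT sex difference; *Serpinc1* and *Nr3c1* were named after their values were seen. The members, lists and tests were chosen with earlier results of these data known.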

Additional observations from a re-analysis of the deposited data

Results flagged for a closer look

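The interaction term of edgeR called 4 of the 10 genes, whose genotype effects differed between the sexes. The effect of females less that of males was 2.75 on the log2 scale for *Serpina1e*, 2.74 for *Serpina12*, 1.24 for *Serpina3k* and -1.65 for *Serpina6*. The effects in the 2 sexes had opposite signs for each of these genes, with single effects called in both sexes for *Serpina1e* and *Serpina6*, in females for *Serpina12* and in neither sex for *Serpina3k*.

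Among the ESR1KO males, *Serpina12* was at 41.6 CPM in MKO3, apart from the other 3 at 56.5 to 59.7 CPM. On the scale of log2 CPM, the gap to the nearest of these was 0.847 of the range of the group, above the limit of 0.829 for 4 samples; on the CPM values themselves it was 0.822, below that limit. Of 20 sets of values checked on the log2 scale, 1 passed its limit, and chance alone flags about 1 in 20.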

How the results depend on the processing

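Between WT sexes 5 of the 10 genes were called, and 3 with the study's minimum log2 fold change of 1.5. Between ESR1KO sexes the count was 0, and 1 with DESeq2's Wald test, with no filter, with total counts only, and 0 to 1 with single mice left out (1 without FKO4), each time *Serpina3m*. In females the count was 4, and 1 with the minimum fold change, 1 with only the groups compared, and 1 to 4 with single mice left out (1 without FWT1, 2 without FWT2 and 1 without FWT3). In males the count was 2, and 4 with DESeq2, 1 with the minimum fold change, 4 with only the groups compared, and 1 to 3 with single mice left out (1 without MWT1, MWT2, MWT3, MKO1, MKO3 or MKO4). The interaction kept 3 or 4 calls. Other settings stayed within 1.5 times these counts, no called difference reversed, and 20 of 1215 estimates changed sign while not called. The causes were not tested.

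Mice with the same replicate number did not deviate together (correlations between -0.195 and 0.140). With the number as a replicate block, the counts were 5, 0, 3, 2 and 3 in the order of the WT sexes, the ESR1KO sexes, females, males and the interaction; *Serpina1e* in females (adjusted p = 0.0797) and *Serpina3k* in the interaction (0.0614) were no longer called. The summed *Serpina1* level of WT males was 16718, 16988 and 16595 CPM with total counts, DESeq2's size factors and upper quartiles, against 16880 CPM. Groups of 3 to 5 mice limit the precision.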
